A study of Danio rerio with 8 samples.

Results

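Transcripts of the mitochondrial respiratory chain and of the ATP synthase were followed in whole ovaries of female zebrafish (AB strain, aged 6 to 8 months) that had been fed TCDD, a dioxin that activates the aryl hydrocarbon receptor. The fish received feed with 0 ppb (the acetone solvent alone, the control), 10 ppb, 40 ppb or 100 ppb TCDD for 15 days. At each dose the RNA of 5 ovaries was combined into 1 pool, and every pool was hybridised on 2 Affymetrix zebrafish arrays, which gave 8 arrays of 4 pools. Differences between the arrays of a pool are technical, so p-values from them do not measure variation between fish. The genes were chosen by name: a probe set belonged when its only annotated symbol began with nduf, sdha, sdhb, sdhc, sdhd, uqcr, cyc1, cox4, cox5, cox6, cox7, cox8 or atp5. This gave 93 of 15502 probe sets, for 86 genes, with 44 probe sets assigned to complex I, 7 to complex II, 9 to complex III, 14 to complex IV and 19 to complex V. Among them were 10 probe sets of assembly factors (ndufaf and sdhaf genes) and 2 of ATP synthase inhibitors (atp5if1a and atp5if1b).

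The respiratory chain passes electrons from NADH (complex I) and succinate (complex II) through ubiquinone to complex III, then through cytochrome c to complex IV, which reduces oxygen. Complexes I, III and IV pump protons across the inner mitochondrial membrane, and ATP synthase (complex V) uses the return flow to make ATP. All genes described here are nuclear, apart from one mitochondrially encoded subunit that is set beside them. Growing oocytes accumulate large numbers of mitochondria, which the embryo inherits. In RNA from whole ovaries, fewer cells of a type and less RNA per cell cannot be told apart.

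Exposure was visible in cyp1a, a cytochrome P450 gene that the receptor activates: it rose by 2.49 ± 0.32 at 10 ppb, 3.13 ± 0.32 at 40 ppb and 4.03 ± 0.32 at 100 ppb (log2 difference ± SE, limma, adjusted p = 0.00349, 0.00211 and 7.96e-05). Of 4 tested receptor targets, cyp1a among them, 1 passed as higher at 10 ppb, 1 at 40 ppb and 2 at 100 ppb. At each dose 1 of the 4 lay below 0. The target tiparp differed by 0.07, 0.29 and 0.96 at the 3 doses (limma, adjusted p = 0.885, 0.534 and 0.00901). Of all tested probe sets 2.43%, 0.613% and 5.17% passed. For cyp1a the 2 arrays of the 10 ppb pool were far apart, at 8.60 and 7.27, against 5.37 and 5.53 in control. Liver markers were also high in that pool (13 of 19 higher, 1 lower), and their part in its cyp1a value was not tested. The intensity filter averaged over all arrays, so high values in that pool helped such genes to be tested. Of 11 oocyte marker genes on the array all 11 passed the intensity filter, which kept 9301 of 15502 probe sets. Of 20 liver markers 19 passed it too, so passing it does not identify the tissue. Correlation between the 2 arrays of each pool was r = 0.981 to 0.992 over 15502 probe sets, and was lowest for the 10 ppb pool. That pool had 190 of 9301 tested probe sets at least 2-fold apart between its arrays, against 9 to 20 in the other pools. Replicate 1 of the 10 ppb pool was scanned alone on day 1, replicate 1 of the other pools on day 2 and replicate 2 of all pools on day 3. For gapdh the 3′ signal over the 5′ signal, a measure of RNA and target quality, was 0.949 and 1.06 on the 100 ppb arrays, against 1.38 and 1.34 on the control arrays. On the 40 ppb arrays it was 1.23 and 1.16, also under control. On the 10 ppb arrays it was 1.22 for replicate 1 and 1.52, the highest of the series, for replicate 2. The part of this ratio in the differences below was not tested.

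The chosen genes were bright on these arrays. Their median intensity lay at the 90.3rd to 91.8th percentile of all probe sets on each array, and 89 to 91 of 93 lay above the 95th percentile of tag controls, which match no zebrafish transcript. Tests were run on the probe sets whose log2 value, averaged over the arrays, exceeded its 40th percentile, and 89 of the 93 passed this filter: 77 subunits, 10 assembly factors and 2 inhibitors, for 85 genes. The 4 left out were the only probe set of ndufa4b and second probe sets of ndufb6, uqcrc2a and atp5l. ndufa4b read 4.03 to 4.29 on the exposed arrays, against 4.66 and 4.90 on the control arrays, in log2(intensity + 16), and lay above the tag controls on 2 of 8 arrays. The median SE of a difference was 0.12 for the 89 probe sets and 0.16 for all 9301 tested.

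Most of these transcripts lay slightly under the control pool at every dose, by amounts that seldom passed the test. The median log2 difference of the 89 probe sets was -0.08 at 10 ppb, -0.13 at 40 ppb and -0.12 at 100 ppb, or 0.945, 0.911 and 0.919 of the control level. The median of all 9301 tested probe sets was -0.02, 0.01 and 0.00. Differences were below 0 for 66, 67 and 65 of the 89 probe sets (74.2%, 75.3% and 73%), against 53.2%, 48.5% and 49.4% of all tested. The array-to-array SD of this median, relative to all probe sets, was 0.055, so that the value at 10 ppb was little larger than the technical spread. The 10 ppb value also rested on replicate 2 of that pool: without it the median relative to all tested was 0.016.

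**Figure D1:**
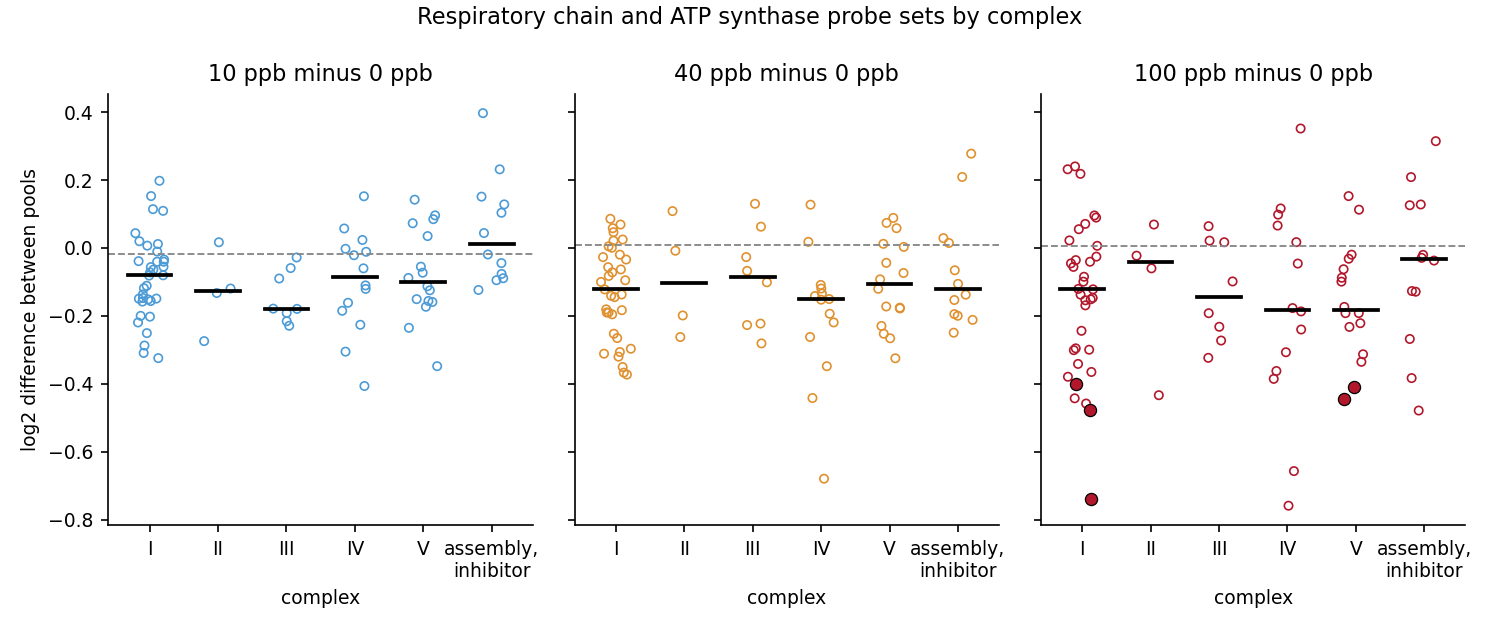
Log2 difference from the control pool (vertical axis) of each tested probe set, by complex (horizontal axis), at 10, 40 and 100 ppb; assembly factors and inhibitors share the last column. Filled points passed at an adjusted p under 0.05, black bars are medians and the dashed line is the median of all 9301 tested probe sets; most points lie below the dashed line, and 5 filled points appear, all at 100 ppb in complexes I and V.

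At 100 ppb 5 of the 89 probe sets passed, all lower: the complex I genes ndufc1, ndufa11 and ndufa4a and the ATP synthase genes atp5pb and atp5md. That is 5.62% of the 89, against 5.17% of all tested probe sets (3.04% counted for lower calls alone), a share near the background. None of the 89 differed by a log2 value of 1 or more (1.25% of all tested did so and passed). At an unadjusted p under 0.05, 29 passed (32.6%, against 23.2% of all), 27 of them lower (30.3%, against 11.7%). The 95% interval of the difference lay within 1 log2 unit either way for 86 of the 89. Both 100 ppb arrays read below both control arrays for 49 of 89 (55.1%, against 28.9% of all tested) and above them for 11 (12.4%, against 29.5%).

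These counts depended on how the arrays were scaled to each other. With quantile normalization, as reported, 5 passed at 100 ppb. Scaling by trimmed means gave 3 (ndufc1, ndufa11 and sdhaf2, background 5.46%), scaling by medians 1 (ndufc1, background 3.94%), and the deposited scale 0 (background 0.14%). No call at 100 ppb was left without either control array or without either 100 ppb array, and 16 of 89 were made without either 10 ppb array. Over all tested probe sets the share called was 13.8% without replicate 1 and 14% without replicate 2 of that pool. The sign of the median was the same under each of these scalings, but its size was not. Relative to all tested probe sets the median of the 89 at 100 ppb was -0.13 with quantile normalization and -0.07 with trimmed means. The median and deposited scalings both gave -0.07. They differ only by a constant per array, so their relative medians are the same by construction and count once. A value of -0.07 is little larger than the array-to-array SD of 0.055, which was measured with quantile normalization.

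In complex I, ndufc1, a small accessory subunit of the membrane arm, had 7.75 and 7.70 on the 100 ppb arrays, against 8.43 and 8.50 on the control arrays. It fell by 0.74 ± 0.15 on the log2 scale, to 0.599 of control (limma, adjusted p = 0.0243). At 10 and 40 ppb it read 8.21 and 8.61, and 7.95 and 8.24. The control and 100 ppb arrays did not overlap, the 40 ppb arrays lay between them, and the 10 ppb arrays fell on both sides of the control values. ndufa11, another accessory subunit of the membrane arm, had 8.95 and 8.92 at 100 ppb, against 9.52 and 9.31 in control, and fell by 0.48 ± 0.11 (adjusted p = 0.0329, limma). At 10 and 40 ppb its arrays read 9.19 to 9.29, below both control arrays and above both 100 ppb arrays.

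ndufa4a is grouped with complex I by its symbol, although the human protein has been placed in complex IV. It had 10.11 and 9.96 at 100 ppb, against 10.50 and 10.38 in control, and fell by 0.40 ± 0.097 (adjusted p = 0.041, limma). All 6 exposed arrays lay below both control arrays. The remaining complex I subunits did not pass. Over all tested probe sets of each arm, those that passed included, the median at 100 ppb was -0.04 for 13 of the hydrophilic arm, which carries the electrons, and -0.14 for 17 of the membrane arm, which pumps the protons. Of those in the hydrophilic arm 7 of 13 lay below 0, near the 49.4% of all tested. They ranged from -0.44 (ndufs8a, an iron-sulfur subunit) to 0.24 (ndufa6). In the membrane arm, which holds ndufc1 and ndufa11, 14 of 17 lay below 0, against the same 49.4%. The difference between the arms was not tested.

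ndufab1a encodes a mitochondrial acyl carrier protein that is also a complex I subunit, and it was represented by 3 probe sets. They differed by -0.29, -0.32 and -0.31 at 10 ppb, by -0.25, -0.37 and -0.31 at 40 ppb and by -0.36, -0.46 and -0.34 at 100 ppb (at 100 ppb adjusted p = 0.113, 0.0641 and 0.11, limma). In all 3 probe sets both arrays of every exposed pool lay below both control arrays, yet none passed. Taking each dose singly, 22.5%, 23.3% and 28.9% of all tested probe sets lay so at 10, 40 and 100 ppb. The share that lay so at every dose was not counted. Its paralog ndufab1b differed by -0.15, -0.09 and -0.04 at 10, 40 and 100 ppb. The probe sets of ndufv2, an iron-sulfur subunit of the part that oxidises NADH, differed by 0.09 and -0.10 at 100 ppb, and neither passed.

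Complex II, which also works in the tricarboxylic acid cycle, had a median of -0.04 over its 4 tested subunits at 100 ppb. Relative to all tested probe sets this median ran from -0.13 to 0.006 with each array left out in turn. sdha, the catalytic flavoprotein subunit, had 7.89 and 7.85 at 100 ppb, against 8.27 and 8.33 in control, a difference of -0.43 ± 0.13 (adjusted p = 0.082, limma) with no overlap. The iron-sulfur subunit sdhb had 8.31 and 8.24 at 100 ppb, against 8.13 and 8.54 in control, and overlapped it. sdhc, a membrane anchor, stayed between 9.55 and 9.73 on all 8 arrays, with a difference of 0.07 at 100 ppb. sdhaf2, known for helping to attach the flavin to the catalytic subunit, differed by -0.48 ± 0.14 at 100 ppb (adjusted p = 0.0765, limma).

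Assembly factors, which help build the complexes without staying in them, had a median of -0.03 over 10 probe sets at 100 ppb, and none passed at any dose. The complex I factors ranged from -0.38 (ndufaf2) to 0.31 (ndufaf8) there. ndufaf1 had 2 probe sets, which differed by 0.13 and 0.13 at 100 ppb. sdhaf3 and sdhaf4, factors of complex II, differed by -0.27 and -0.04.

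In complex III the redox subunits stood close to control: uqcrfs1, the Rieske iron-sulfur protein, differed by 0.06 and cyc1, cytochrome c1, by 0.02 at 100 ppb. The core subunit uqcrc1 differed by -0.27 and the small subunits uqcrq and uqcrh by -0.32 and -0.23, none passing. uqcrq read 8.77 to 8.97 on the 6 exposed arrays, against 9.18 and 9.12 on the control arrays, so that its exposed and control values did not overlap. At 10 ppb all 8 complex III probe sets differed by values below 0, from -0.23 (uqcrc2a) to -0.03 (uqcrfs1), where 53.2% of all tested lay below 0.

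Complex IV held the members with the most negative and the most positive differences at 100 ppb, and 0 of its 14 probe sets passed there (7 of 14 at an unadjusted p under 0.05, against 23.2% of all tested). cox6b1, a subunit on the intermembrane-space side, had 5.70 and 5.48 at 100 ppb, against 6.41 and 6.29 in control, a difference of -0.76 ± 0.27 (adjusted p = 0.126, limma). Its 10 ppb arrays read 7.01 and 5.99, which made it the only member at least 2-fold apart between the arrays of a pool, and its SE was the highest of the 89. cox4i1l, a form of subunit 4, differed by -0.68 ± 0.20 at 40 ppb and -0.66 ± 0.20 at 100 ppb (adjusted p = 0.214 and 0.0852, limma). It had 5.14 and 5.24 at 40 ppb and 5.10 and 5.33 at 100 ppb, against 5.96 and 5.78 in control. Its 40 and 100 ppb values thus lay close to 5.11, the cutoff that the intensity filter set on the average over the arrays.

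The paralogs cox5aa and cox5ab, which encode subunit 5A, differed by -0.36 and -0.39 at 100 ppb (adjusted p = 0.101 and 0.0708, limma). cox5aa read 9.58 to 9.88 on the 6 exposed arrays, against 10.10 and 10.18 on the control arrays, and cox5ab 9.02 to 9.37 against 9.45 and 9.45, with no overlap for either. cox8a, the small subunit 8A, went the other way: it had 7.50 and 7.58 at 100 ppb, against 7.10 and 7.28 in control, a difference of 0.35 ± 0.13 (adjusted p = 0.151, limma) with no overlap. cox4i2, the form of subunit 4 tied in mammals to low oxygen, differed by 0.12 at 100 ppb and overlapped control.

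In ATP synthase, atp5pb, subunit b of the peripheral stalk that holds the catalytic head still, had 9.86 and 9.81 at 100 ppb, against 10.22 and 10.27 in control. It fell by 0.41 ± 0.098, to 0.754 of control (limma, adjusted p = 0.039). Its 40 ppb arrays, at 9.91 and 9.93, and its 10 ppb arrays, at 10.16 and 9.99, also lay below both control arrays. The other stalk subunits, atp5pd and atp5pf, differed by -0.34 and -0.19 at 100 ppb and did not pass. Both arrays of each exposed pool lay below both control arrays for all 3 stalk genes. Of all tested probe sets 22.5%, 23.3% and 28.9% did so at 10, 40 and 100 ppb, each dose taken singly. The share that did so at every dose was not counted, and the doses share the same control arrays.

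atp5md, a small membrane subunit also known as DAPIT, had 9.64 and 9.44 at 100 ppb, against 9.95 and 10.02 in control, and fell by 0.45 ± 0.11 (adjusted p = 0.046, limma). Its exposed arrays read 9.44 to 9.80, all below control. The 4 subunits of the catalytic head and central stalk had a median of -0.08 at 100 ppb, from -0.17 (atp5f1c) to -0.02 (atp5f1d). The 3 probe sets of the proton-carrying c ring ranged from -0.23 (atp5mc3b) to 0.15 (atp5mc1), and neither of these passed. atp5f1b, the catalytic beta subunit, differed by -0.09 at 10 ppb, -0.07 at 40 ppb and -0.10 at 100 ppb. atp5if1a, an inhibitor of ATP hydrolysis by the enzyme, differed by 0.21 and atp5if1b by -0.13.

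**Figure D2:**
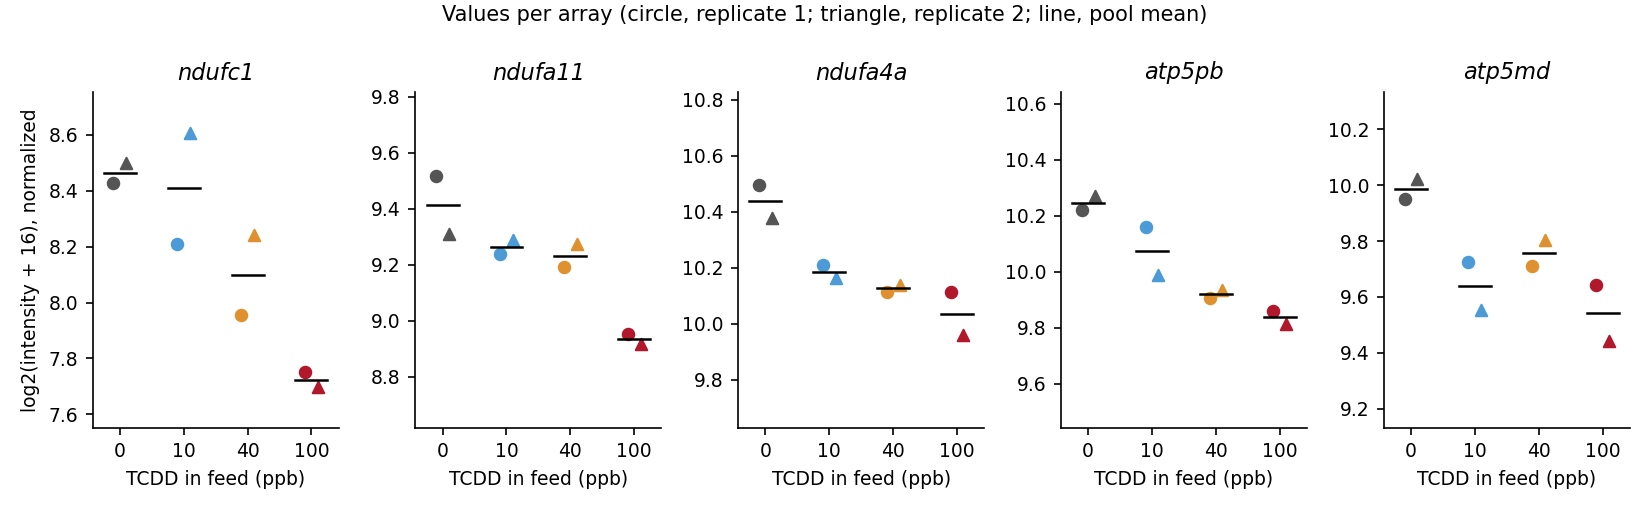
Normalized log2(intensity + 16) on each array (vertical axis) by TCDD dose in the feed (horizontal axis) for the 5 genes that passed at 100 ppb; circles are replicate 1, triangles replicate 2 and lines pool means, and each panel spans the same 1.2 log2 units. In every panel both 100 ppb arrays lie below both control arrays, and atp5md is the only one whose 40 ppb mean lies above its 10 ppb mean.

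At 40 ppb none of the 89 probe sets passed (background 0.613%), and 13 had an unadjusted p under 0.05 (14.6%, against 11.7% of all tested). All 13 lay lower, where 5.78% of all tested did. Both arrays lay below both control arrays for 47 of 89 (52.8%, against 23.3%) and above them for 6 (6.74%, against 24.5%). Complex medians were -0.12, -0.10, -0.08, -0.15 and -0.11 for complexes I to V. cox4i1l had the most negative difference and ndufaf1, an assembly factor of complex I, the most positive, at 0.28 in one probe set and -0.07 in the other.

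At 10 ppb none of the 89 passed (background 2.43%), and 8 had an unadjusted p under 0.05 (8.99%, against 15% of all tested). Both arrays lay below both control arrays for 28 of 89 (31.5%, against 22.5%). With median scaling the order was reversed, at 10.1% of the 89 against 20.1% of all tested. Complex medians were -0.08, -0.13, -0.18, -0.09 and -0.10 for complexes I to V. cox5aa was lowest, at -0.41 ± 0.12 (adjusted p = 0.119, limma), and ndufaf8, a complex I assembly factor, highest, at 0.40 ± 0.14 (adjusted p = 0.197, limma). ndufaf8 read 7.02 to 7.29 on the exposed arrays, against 6.83 and 6.96 in control, above it on all 6.

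The 2 arrays of the 10 ppb pool did not place the respiratory genes alike. Their median difference, replicate 1 minus replicate 2, was 0.14, against -0.03 to -0.01 in the other pools. Without replicate 2 the median of the 89 at 10 ppb, relative to all tested, was 0.016, and without replicate 1 it was -0.16. For the 89 together the direction at 10 ppb therefore rested on replicate 2. With each array of the series left out in turn, the relative subunit median at 10 ppb stayed below 0 in complexes III and IV. It ran from -0.20 to -0.11 in complex III and from -0.18 to -0.02 in complex IV. In complexes I, II and V it reached 0.016, 0.008 and 0.019. This pool also stood apart in liver markers: of 19 tested, 13 were higher and 1 lower at 10 ppb. The intensity filter used the average over all arrays, so a gene could be tested through this pool alone. hpxb had 9.63 and 8.19 at 10 ppb and 4.04 to 4.50 on the arrays of the other pools, under the cutoff of 5.11. The count of 13 of 19 was therefore in part set by the filter. All 20 liver markers on the array had a summed intensity of 5750 to 19874 in the 10 ppb pool, against 2675 to 3138 on the control arrays. Pancreas markers summed to 426 to 1052 on the 10 ppb arrays, against 357 to 379 on the control arrays. The part of these markers in the values at 10 ppb was not tested.

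**Figure D3:**
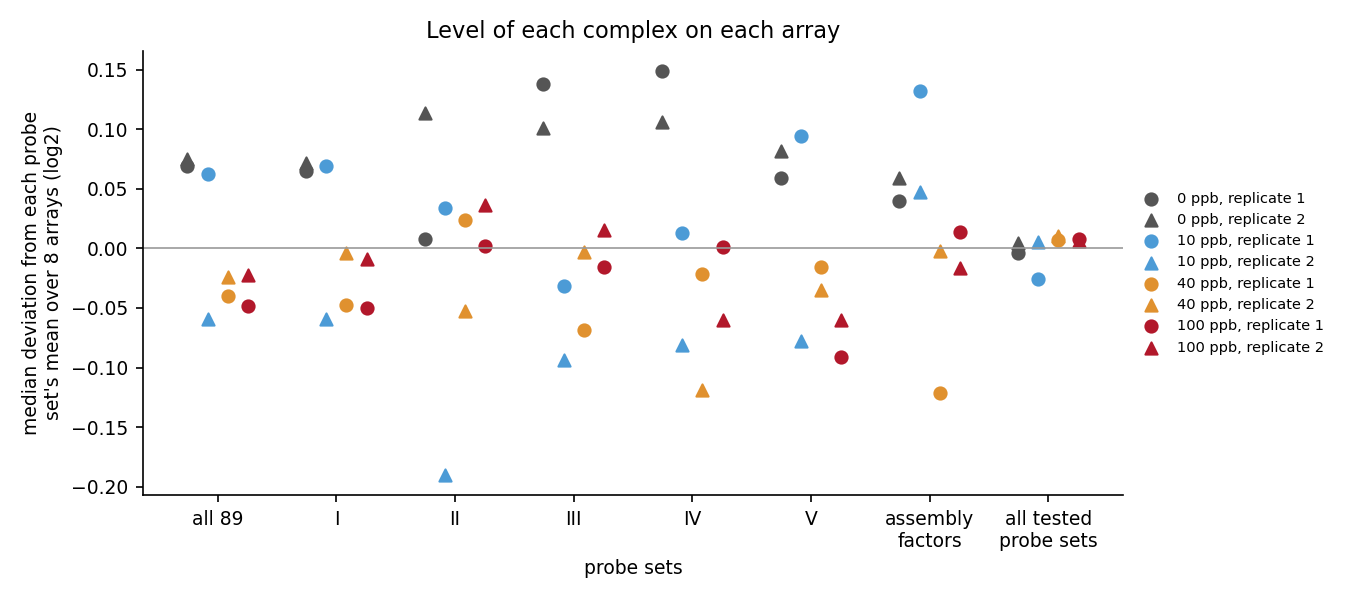
Median deviation (vertical axis, log2) of the probe sets of each complex from their own mean over the 8 arrays, for each array (circles replicate 1, triangles replicate 2, coloured by dose), with assembly factors and all 9301 tested probe sets at the right. Over all 89 probe sets the control arrays stood at 0.07 and 0.08, the 10 ppb arrays at 0.06 and -0.06, and the 40 and 100 ppb arrays between -0.05 and -0.02.

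Between the exposed pools, 1 of the 89 passed for 100 ppb against 10 ppb (1.12%, background 3.57%, or 2.11% for lower calls). This was ndufc1, at 7.75 and 7.70 in the 100 ppb pool against 8.21 and 8.61 in the 10 ppb pool, a difference of -0.68 ± 0.15 (adjusted p = 0.0391, limma). At an unadjusted p under 0.05 there were 10 (11.2%, against 17.7% of all tested). None passed for 40 ppb against 10 ppb (background 1.47%, with 6 of 89 at an unadjusted p under 0.05, against 9.77% of all tested) or for 100 ppb against 40 ppb (background 0.892%, with 4 of 89, against 11.8%). The median of the 89 was 0.00 for 100 ppb against 40 ppb.

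With 1 mean per pool as the sample, no probe set of the 89 passed in limma for the 3 exposed pools against the control pool (background 0%, lowest adjusted p of the 89 0.648) or for the slope on dose rank (background 0.0215%, lowest 0.285). Before adjustment limma called 9 of 89 against control (10.1%, against 7.54% of all tested), all lower (3.8% of all tested were). It called 15 of 89 for the slope (16.9%, against 12.2%), all falling (5.78%). The slope of ndufc1 was -0.25 per dose step (adjusted p = 0.285, limma on pool means). These fits have 2 residual degrees of freedom.

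The 0, 40 and 100 ppb pools had arrays scanned on both day 2 and day 3. Each day therefore gave its own difference from separate arrays of the same pools. For 100 ppb against control the median of the 89 was -0.14 on day 2 and -0.13 on day 3, and for 40 ppb -0.11 on both days. Across the 89 probe sets, which are not independent, the 100 ppb differences of the 2 days correlated at r = 0.691, against 0.697 across all tested, and 53 of 89 were below 0 on both days, against 3321 of 9301 tested. For 40 ppb r was 0.463, against 0.519. With scan day as a block 26 of the 89 passed at 100 ppb (29.2%, background 21.4%), 25 of them lower (background 10.7%) and cox8a higher.

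In that fit the lower calls fell in all 5 complexes, with 12 probe sets in complex I, 2 in complex II, 1 in complex III, 5 in complex IV and 5 in complex V. They included all 5 genes that passed without the block, the 3 probe sets of ndufab1a, sdha, sdhaf2, uqcrq, cox6b1, cox4i1l, cox5aa, cox5ab and atp5pd. Adjusted p in that fit was 0.00164 for ndufc1, 0.0044 for cox6b1 and 0.0457 for cox8a (limma). At 40 ppb atp5pb, ndufa4a, cox4i1l and cox5aa passed in it as lower (4.49% of the 89, background 4.64%). At 10 ppb cox5aa and ndufa13 did (2.25%, background 6.64%), and ndufa13 is named here because its value was seen.

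**Figure D4:**
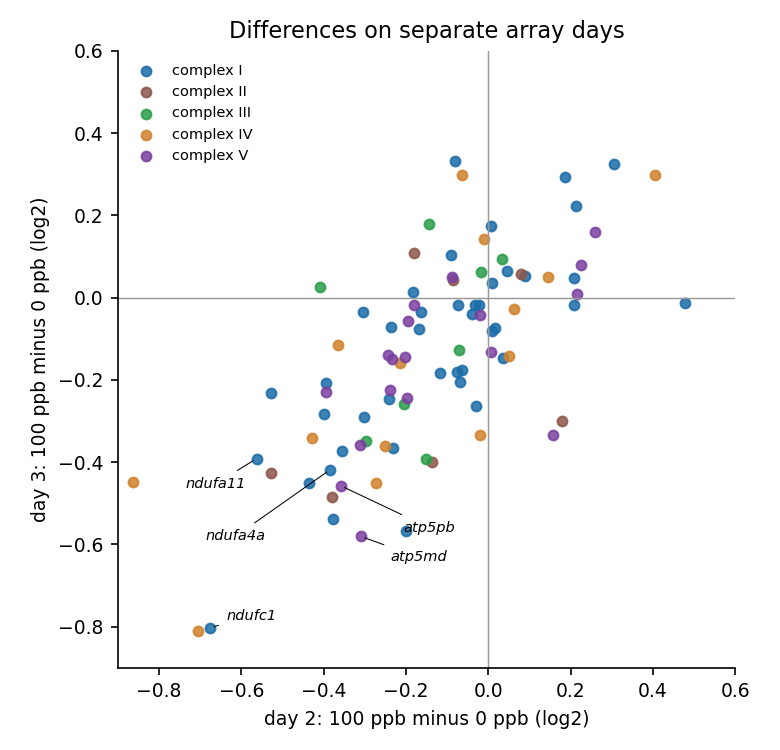
Log2 difference of 100 ppb from control on day 2 (horizontal axis, replicate 1 arrays) and day 3 (vertical axis, replicate 2 arrays) for each of the 89 probe sets, coloured by complex, with the 5 genes that passed labelled. Of the 89 points 53 lie below 0 on both axes and 15 above 0 on both.

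The share of respiratory probe sets under the control arrays also moved with the scaling. At 100 ppb 49 of 89 had both arrays below both control arrays with quantile normalization, 45 with trimmed mean scaling, 21 with median scaling and 1 on the deposited scale. All tested probe sets gave 28.9%, 32.8%, 20.5% and 3% in the same order, so that the excess of the 89 was large in only 2 of the 4 scalings. For complex V the median at 100 ppb relative to all tested was -0.19 with quantile normalization and -0.02 with the other scalings. For complex IV it was -0.19 and -0.08. The median and deposited scalings give the same relative median by construction.

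**Figure D5:**
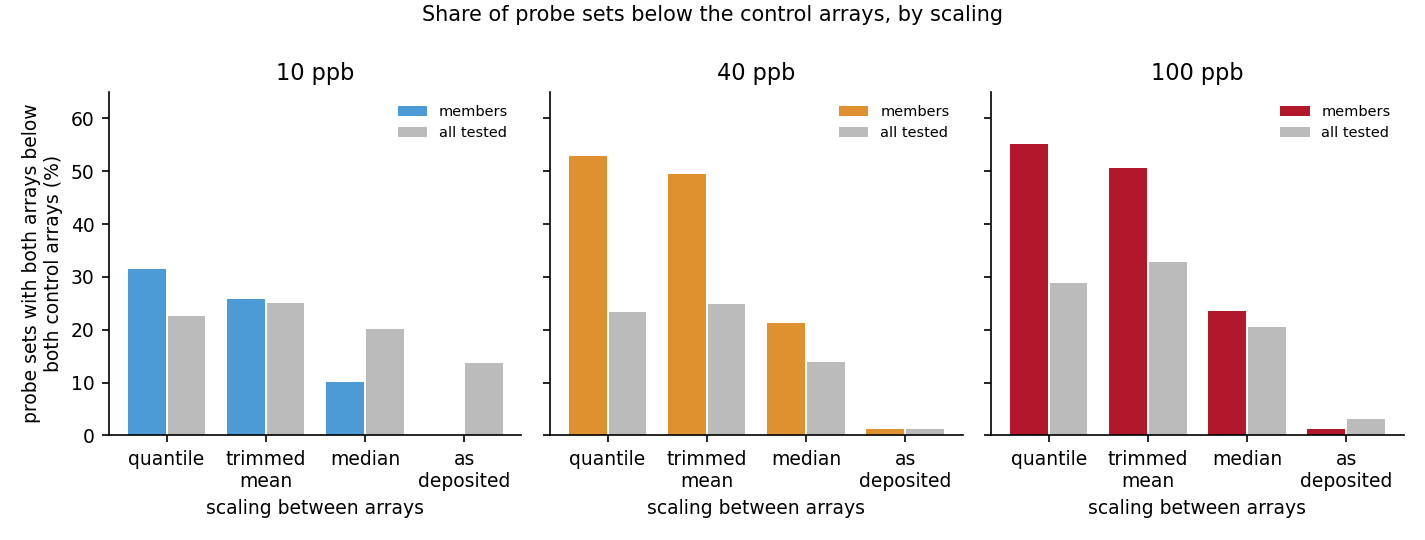
Percent of probe sets with both exposed arrays below both control arrays (vertical axis) under 4 scalings between arrays (horizontal axis), at 10, 40 and 100 ppb; coloured bars are the 89 respiratory probe sets and grey bars all tested. At 100 ppb the coloured bar stands at 55.1% against 28.9% with quantile normalization and at 1.12% against 3% on the deposited scale.

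Among genes that work beside the chain, few passed. Of 12 genes for cytochrome c and quinone synthesis 1 fell at 100 ppb: coq3, a methyltransferase of ubiquinone synthesis, had 7.97 and 7.99, against 8.47 and 8.72 in control, a difference of -0.62 ± 0.13 (adjusted p = 0.0244, limma). None of 22 further assembly and supercomplex genes, 27 import and chaperone genes, 7 genes of mitochondrial transcription and biogenesis or 14 genes of the V-type proton ATPase passed at any dose. Of 19 genes listed for the tricarboxylic acid cycle idh2, mitochondrial isocitrate dehydrogenase, fell at 100 ppb by 0.51 ± 0.12 (adjusted p = 0.04, limma). On the same list mdh1ab, by its symbol a cytosolic form of malate dehydrogenase, fell at 10 ppb by 0.70 ± 0.14 (adjusted p = 0.0304, limma).

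Of 7 carrier and channel genes ppifa, whose mammalian counterpart cyclophilin D regulates the permeability transition pore, fell at 100 ppb by 0.88 ± 0.12 (adjusted p = 0.00371, limma). It had 7.28 and 7.25 at 100 ppb, against 8.07 and 8.21 in control, with no overlap. ucp1, an uncoupling protein gene, rose at 10 ppb alone, where it had 9.61 and 8.01, against 5.46 and 5.28 in control. The filter used the average over all arrays, and on those of the other pools ucp1 read 4.32 to 5.46, around the cutoff of 5.11. Liver markers were also high in the 10 ppb pool (13 of 19 higher, 1 lower), and their part in the ucp1 value was not tested. Of 59 mitochondrial ribosomal protein genes mrps6 rose by 0.71 ± 0.11 at 100 ppb (adjusted p = 0.00503, limma) and mrpl2 fell by 0.80 ± 0.14 at 10 ppb (adjusted p = 0.0148, limma). COX1, the mitochondrially encoded core subunit of complex IV, had 3 probe sets, none of which passed at any dose. They differed by -0.57, -0.29 and -0.49 at 10 ppb, by 0.03, 0.16 and -0.07 at 40 ppb and by -0.18, -0.02 and -0.13 at 100 ppb. At 10 ppb replicate 2 read 10.50, 11.32 and 11.44, lower than replicate 1 at 11.11, 11.72 and 12.05. For the probe set at 11.72 replicate 1 lay between the control arrays, at 11.60 and 12.03.

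Markers of other cell types also passed at 100 ppb. The counts below are of tested genes, while the sums cover every listed gene on the array, also those under the intensity filter. The sums hold 11 epithelial, 10 leukocyte, 8 red blood cell and 9 muscle genes. Of 10 epithelial markers 7 fell and 1 rose, with a summed intensity of 6794 to 7086, against 8062 to 9953 in control. Leukocyte markers (3 of 8 lower, 1 higher) summed to 385 to 436, against 788 to 855, red blood cell markers (2 of 2 lower) to 195 to 202, against 467 to 509, and muscle markers (2 of 4 lower) to 256 to 260, against 498 to 515. Of 11 oocyte markers 2 rose, nanos3 and org, and 3 differed by values below 0, with a sum of 22832 to 23563, against 19576 to 20237. Among 4 follicle and steroid cell markers gsdf rose and 1 lay below 0. The 8 on the array summed to 771 to 786, which overlapped the 725 to 777 of control. At this dose 5.17% of all tested probe sets passed, 3.04% as lower and 2.13% as higher. The part of these markers in the respiratory gene values was not tested.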

How the data were processed

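Per the labels, total RNA of whole ovaries was pooled and hybridised to Affymetrix zebrafish arrays. In the deposited table each array has a linear intensity for every probe set, a MAS5 signal per the submitters' processing notes, and its scaling target is not given in the sources used here. Instrument files served to group arrays by scan day. The 115 control features among the 15617 were dropped. The platform annotation gave 1 symbol to 10795, several to 135 and none to 4572, and only single symbols were used. No genome was used, so no coordinates or sequences are given.

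Values were log2(intensity + 16), quantile normalized. A difference on this scale understates the change of dim probe sets. The 9301 tested were those whose average over the arrays exceeded 5.11, its 40th percentile. limma 3.58.1 in R 4.3.3 fitted the 4 pools over 8 arrays (lmFit, eBayes with a variance trend, 4 residual degrees of freedom), with Benjamini-Hochberg adjustment over all tested probe sets, and a probe set passed at an adjusted p under 0.05. The SE pools the array spread of the 4 pools. A second limma fit used 1 mean per pool. Precision is limited by how many arrays and pools there were. Levels were compared within a probe set only. The fit was tested on simulated data. Genes named are those that passed against control, the largest difference in each direction per complex and dose, the brightest probe sets, genes with several probe sets, paralogs, assembly factors and inhibitors, and up to 3 passing genes of each other list. ndufa6, ndufs8a, ndufa13, sdha, uqcrc1, cyc1, atp5f1b, atp5f1c, atp5f1d, atp5pd and atp5pf fall outside this rule and were named after their values were seen. Members and lists were chosen with earlier results of these data known. Alternatives were scaling, filter, pseudocount, variance trend, block and array left out. Same-numbered arrays of the 0, 40 and 100 ppb pools shared a scan day, and the correlation of their deviations was 0.143 to 0.298. The 10 ppb pool, whose replicate 1 was scanned on another day, gave 0.0126 to 0.0464, so the number did not pair all 4 pools. The day was used as the block that follows this pairing.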

Additional observations from a re-analysis of the deposited data

Results flagged for a closer look

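ndufc1, the complex I accessory subunit gene, differed between exposed pools, with the 100 ppb pool lower than the 10 ppb pool by a difference of -0.6846 ± 0.15 on the log2 scale (limma, adjusted p = 0.0391). It was the only one of the 89 respiratory probe sets to pass between doses. The difference kept its sign in all 20 alternatives, from -0.88 to -0.41, and passed in 8 of them, with adjusted p from 0.00381 to 0.999.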

How the results depend on the processing

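The 89 probe sets had 5 calls at 100 ppb, 1 for 100 ppb against 10 ppb and 0 elsewhere. The 100 ppb count was 0 on the deposited scale (background 0.14%) and with a minimum log2 difference of 1 (background 1.25%). It was 1 with median scaling (background 3.94%) or without a variance trend, and 2 without a filter. In alternatives chosen after seeing the data it was 3 with trimmed mean scaling (background 5.46%). With only the 0, 40 and 100 ppb pools it was 16 of 88 tested (18.2%, background 13.9%), another alternative chosen after seeing the data. It was 14 with only the compared pools. No background was counted without a variance trend, without a filter or with only the compared pools. Scan day as a block gave 26 at 100 ppb (29.2%, background 21.4%) and 4 at 40 ppb (4.49%, background 4.64%). In that fit the 10 ppb pool rested on replicate 2 alone, with a median of -0.15 relative to all tested at 10 ppb. The 1 call for 100 ppb against 10 ppb was 0 with deposited or median scaling, a minimum difference of 1, no filter, no variance trend or only the compared pools. Leaving out each array in turn gave 0 to 16 calls at 100 ppb, 0 to 1 at 10 ppb, 0 to 1 at 40 ppb, 0 to 3 for 40 ppb against 10 ppb and 0 to 3 for 100 ppb against 10 ppb, and a relative median at 10 ppb of -0.16 to 0.016. Members with both arrays below both control arrays numbered 28, 47 and 49 at 10, 40 and 100 ppb. With median scaling they numbered 9, 19 and 21 (10.1%, 21.3% and 23.6%, against 20.1%, 13.8% and 20.5% of all tested). On the deposited scale they numbered 0, 1 and 1 (0%, 1.12% and 1.12%, against 13.6%, 1.19% and 3%). The median over all probe sets lay there at -0.34, 0.14 and -0.07. At 10 ppb the share was thus under the background in both scalings, the reverse of quantile normalization. With the replicate block the count stayed at 5 at 100 ppb (5.62%, background 6.45%) and 1 for 100 ppb against 10 ppb, with 0 elsewhere against control. The numbers pair the arrays of the 0, 40 and 100 ppb pools through scan day but not those of the 10 ppb pool. The relative median of the 89 stayed below 0 in every alternative run at 40 ppb (-0.14 to -0.09) and 100 ppb (-0.15 to -0.07). At its smallest, the 100 ppb value was little larger than the array-to-array SD of 0.055. The 6 named member differences that passed kept their sign in all 125 alternative values and lost the threshold in 59. The cause was not tested. A pool of 5 fish on 2 arrays cannot show variation between fish, and 4 of the 93 members were too dim to test.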
